A study of Bos indicus with 12 samples.

Results

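The inward rectifier potassium channel genes *KCNJ12* and *KCNJ2* were described here through the covered cytosines within 250 kb of the cytosine that the study paired with each of them on chromosome 19. Both cytosines had been selected by the study because their methylation differed between tough and tender beef, so that difference is given below as a description without a test. Of the 635469 cytosines measured, 464 lay in the *KCNJ12* window (chr19:35101196-35601196, ARS-UCD1.2) and 228 in the *KCNJ2* window (chr19:58336151-58836151), and the remainder of chromosome 19 held 42872. The windows are 500 kb each and their sites lie 23.2 Mb apart.

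The animals were Nelore (*Bos indicus*) steers kept on the same feedlot diet, and DNA came from the *longissimus thoracis* muscle, with 1 library of reduced representation bisulfite sequencing (RRBS) per animal. The Tough group comprised 6 animals with high breeding values for shear force (Tough 1 to 6) and the Tender group 6 with low values (Tender 7 to 12), from different sires within a group. Shear force is the force needed to cut a steak. The labels place its measurement 7 days after slaughter and the study's text at a later day, with the same animals in each group. RRBS reads cytosines near the cutting sites of the enzyme *MspI*, so it covers CpG-rich DNA best, and the measured level is an average over all cell types of the muscle piece. Muscle identity could not be checked, since no transcript was measured here.

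Inward rectifier channels pass potassium more easily into the cell than out of it. In skeletal muscle they help to hold the resting potential and to clear potassium from the transverse tubules after contraction. *KCNJ12* and *KCNJ2* encode close relatives of this family that can assemble into common channels. *KCNJ16*, another member, follows *KCNJ2* directly in the gene order of a RefSeq table of the Tharparkar assembly, with *SOX9* on the other side of *KCNJ2* and the kinase gene *MAP2K6* behind *KCNJ16*. In the same table *KCNJ12* lies between the kinase gene *MAP2K3* and *UTP18*. That table has another build than the methylation values, so it was used for names and order only.

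The cytosine paired with *KCNJ12* is at position 35351196 on the minus strand. The study's annotation calls it intergenic, outside CpG islands and shores, with *KCNJ12* as the closest gene. In the Tough group its methylation, the percentage of reads that kept the cytosine, was 34.8% in Tough 1, 34.8% in Tough 2, 37.5% in Tough 3, 22.7% in Tough 4, 16% in Tough 5 and 31.2% in Tough 6. The Tender animals had 50% (Tender 7), 54.5% (Tender 8), 54.2% (Tender 9), 76.2% (Tender 10), 51.9% (Tender 11) and 52% (Tender 12). Every Tender animal was therefore above every Tough animal, 5 of the 6 Tender values lay between 50% and 54.5%, and Tough 4 and Tough 5 were the lowest of all. The means were 29.5% ± 8.38 and 56.5% ± 9.81 (SD, n = 6 each), and the pooled difference, Tender minus Tough, was 26.7 percentage points.

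The cytosine paired with *KCNJ2* is at position 58586151, also on the minus strand. Its closest gene in the study's annotation is LOC101907523 and *KCNJ2* is a predicted regulatory target, so the pair is not one of a site with its nearest gene. The annotation calls the cytosine intergenic when it is listed alone and intronic when it is listed as the single cytosine of a 100 bp region. Methylation was 60% in Tough 1, 96% in Tough 2, 76.9% in Tough 3, 85.7% in Tough 4, 77.3% in Tough 5 and 84.2% in Tough 6. It was 46.7% in Tender 7, 50% in Tender 8, 68.4% in Tender 9, 46.9% in Tender 10, 60% in Tender 11 and 60.6% in Tender 12. The groups overlapped here, because Tough 1 lay within the Tender range while the other Tough animals were above it. The means were 80.02% ± 12.03 and 55.4% ± 8.90 (SD, n = 6 each), with a pooled difference of -27.1 percentage points.

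The 2 sites thus had differences of similar size and opposite sign, starting from different levels. Tender means were close to each other, 56.5% at the *KCNJ12* site and 55.4% at the *KCNJ2* site, and the Tough means of 29.5% and 80.02% lay on either side of them. Tender 10 had the highest value of the 12 animals at the *KCNJ12* site and the second lowest at the *KCNJ2* site. Tough 1, the lowest Tough animal at the *KCNJ2* site, was not the lowest at the *KCNJ12* site.

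**Figure D1:**
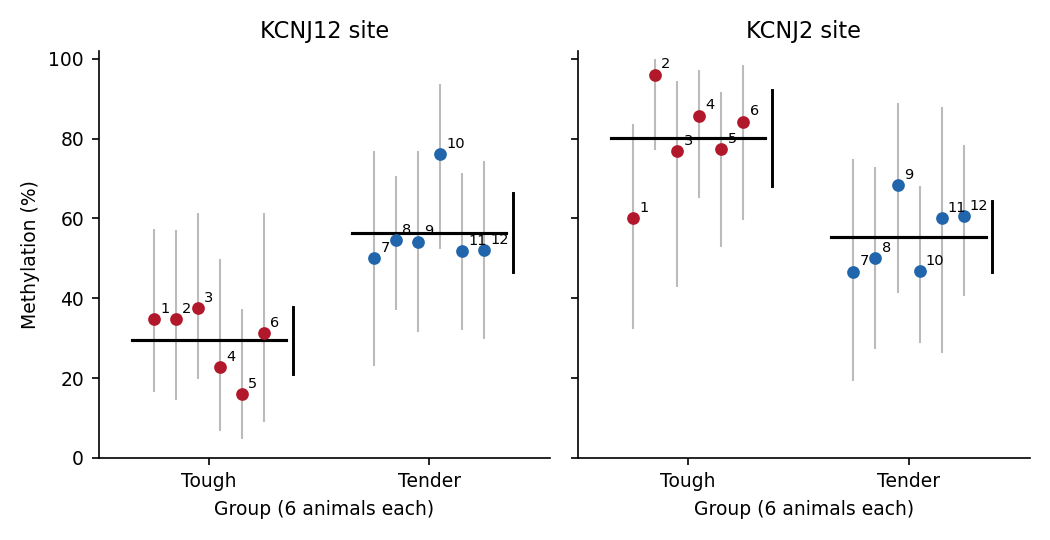
Methylation in percent at the 2 sites in each of the 6 Tough (red) and 6 Tender (blue) animals, numbered by animal. Grey lines are exact 95% binomial intervals from the reads before scaling, horizontal bars the group means and black vertical lines the SD; at the *KCNJ12* site the groups do not overlap, with Tender 10 at 76.2%, and at the *KCNJ2* site Tough 1 at 60% lies among the Tender animals.

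Few reads stood behind each of these values. Before the authors' scaling, the *KCNJ12* site had 13 to 37 reads per animal (median 21) and the *KCNJ2* site 10 to 28 (median 18). Exact 95% binomial intervals, which cover counting error only, were 32.6 to 53.9 points wide at the *KCNJ12* site and 22.7 to 61.6 at the *KCNJ2* site. At these depths binomial sampling alone gives an SD between animals of 10.4 points for Tough and 10.9 for Tender animals at the *KCNJ12* site, where 8.38 and 9.81 were observed. At the *KCNJ2* site it gives 9.35 and 12.2, where 12.03 and 8.90 were observed. The spread between animals of a group was therefore no wider than counting error at the *KCNJ12* site and slightly wider at the *KCNJ2* site in Tough animals. As a comparison, the median within-group SD of cytosines with a mean methylation of 20% to 80% was 14.0 points over the 48 such cytosines of the *KCNJ12* window, 14.8 over the 89 of the *KCNJ2* window and 13.8 over the 7059 of the rest of chromosome 19. The sites themselves had 9.12 and 10.6. A narrow spread favours selection as a differential cytosine, so nothing is read from these low values.

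Spike-in controls of the study divide the animals into 5 with a higher bisulfite conversion (3 Tough, 2 Tender) and 7 with a lower one (3 Tough, 4 Tender). At the *KCNJ12* site the Tender mean exceeded the Tough mean by 25.9 points within the higher group (27.3% against 53.2%) and by 26.4 within the lower one (31.7% against 58.1%). The *KCNJ2* site had a Tender minus Tough value of -30.8 points within the higher group (85.8% in Tough and 55% in Tender animals) and -18.6 within the lower one (74.2% and 55.6%). The difference at the *KCNJ2* site was thus larger within the higher group. With the conversion group as a covariate in the logistic model, the *KCNJ2* window had 0 called cytosines in place of 1, while its 100 bp region was still called and the *KCNJ12* window kept 1 called cytosine (criteria below).

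The surroundings of the 2 sites differed. Of the *KCNJ12* site, 3 further cytosines were covered within 1 kb, all on its lower-coordinate side. Distances below are negative towards lower coordinates. The cytosines at -9 bp on the plus strand and -8 bp on the minus strand are both strands of the neighbouring CpG. At -8 bp, on the strand of the site, Tough animals had 34.8%, 8.7%, 24%, 18.2%, 24% and 31.2% and Tender animals 43.8%, 37.8%, 48%, 38.1%, 51.9% and 20%, in the order of their numbers. Tender 12 was the exception here, as the other 5 Tender animals were above all Tough animals. The means were 23.5% ± 9.33 and 39.9% ± 11.2 (SD, n = 6 each), a pooled difference of 16.5 points.

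On the opposite strand of that CpG, at -9 bp, the groups lay over each other. Tough animals had 17.6%, 28.6%, 25.9%, 37.5%, 10% and 27.3% and Tender animals 28.6%, 16.7%, 35.3%, 26.7%, 34.5% and 17.4%, with means of 24.5% ± 9.51 and 26.5% ± 8.06 (SD, n = 6 each) and a pooled difference of 1.56 points. At -56 bp on the plus strand, the Tough values ran from 22.2% to 59.1% and the Tender values from 38.1% to 62.1%, with means of 37.9% ± 16.6 and 48.4% ± 10.3 (SD, n = 6 each). All 3 neighbours therefore had a higher Tender mean, but each with overlap of the groups, and the 2 strands of 1 CpG differed in how far the groups stood apart. Reads of both strands come from different molecules. A read of the minus strand can hold the site and the cytosine at -8 bp together, so these 2 are not separate measurements. A read of the plus strand can likewise hold the cytosines at -56 bp and -9 bp together. The 3 neighbours are therefore not 3 separate measurements.

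**Figure D2:**
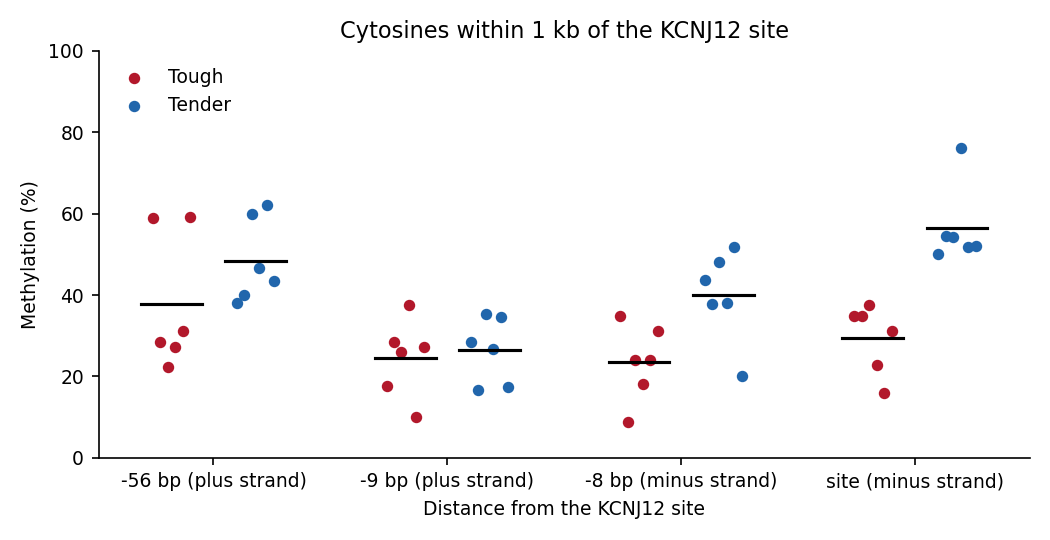
Methylation in percent of the 4 cytosines covered within 1 kb of the *KCNJ12* site, by distance from it, in the 6 Tough (red) and 6 Tender (blue) animals, with bars at the group means. The groups are apart at the site, apart but for Tender 12 at -8 bp (16.5 points pooled) and interleaved at -9 bp (1.56 points).

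The *KCNJ2* site had no covered cytosine within 1 kb. Its nearest neighbours were 7689 bp and 8354 bp away, and 7 cytosines were covered within 10 kb, against 21 around the *KCNJ12* site. At neither site was the opposite strand of the CpG itself covered. The difference at the *KCNJ2* site thus rests on 1 cytosine on 1 strand, and the 100 bp region that the study lists there holds the same reads.

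In each window, the site was the only cytosine called differential. A call needed an adjusted p under 0.05 and a pooled difference above 25 points in either direction, the thresholds of the study. The logistic model was refitted here with Benjamini-Hochberg adjustment, where the study gives q-values, so counts can differ from those of the study. Over all cytosines 121 were called, or 0.019%. The call at the *KCNJ2* site was lost on reads before scaling, with conversion as covariate and with the F-test of methylKit, under which 9 cytosines were called over all. An F-test at every cytosine called 0, also at the *KCNJ12* site. Since the windows are centred on called sites, nothing is read from these counts. When 1 animal was left out at a time, the *KCNJ12* site was called in 10 of 12 fits, and no longer without Tough 5 (pooled difference 23.6 points) or Tender 10 (23.6 points). The *KCNJ2* site was called in 4 of 12, those without Tough 1, Tender 9, Tender 11 or Tender 12, and its pooled difference lay between -30.2 and -23.5 points over the 12 fits. Cytosines of the *KCNJ2* window other than the site were called without Tough 2, Tough 5, Tender 7 or Tender 12. Without Tough 5 there were 2 called cytosines, neither of them the site. Calls over all cytosines numbered 196 without Tough 1 and 187 without Tender 10. No 100 bp region was called in the *KCNJ12* window among 97, and in the *KCNJ2* window the region of the site was the 1 called among 94, against 0.0217% of all regions. Group values without overlap occurred at 1 cytosine of the *KCNJ12* window, the site itself, and at 0 of the *KCNJ2* window, with a share of 0.0965% over all cytosines.

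The *KCNJ12* window held 27 cytosines (5.82%) with an unadjusted p under 0.05 and the *KCNJ2* window 31 (13.6%), where the share over all cytosines was 8.29%. Among cytosines with a mean methylation of 20% or more, 5 of 77 (6.49%) and 26 of 180 (14.4%) had such a p, against 8.9% of all of that level. With an F-test at every cytosine, an alternative added after the data had been seen, 15 (3.23%) and 26 (11.4%) cytosines of the windows and 4.93% of all had an unadjusted p under 0.05. Of the 27, 13 were higher in Tender and 14 in Tough animals, and of the 31, 10 and 21. Counting all cytosines of the *KCNJ12* window, 177 were higher in Tender, 177 higher in Tough and 110 equal. The *KCNJ2* window had 105 higher in Tender, 113 higher in Tough and 10 equal. The median difference was 0 in both windows and over all cytosines. The window means differed by 0.209 and -0.620 points, where the mean over all cytosines differed by 0.402 points.

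A pooled difference above 25 points was found at 3 cytosines of the *KCNJ12* window (0.647%) and 6 of the *KCNJ2* window (2.63%), against 0.225% of all cytosines. Neither site had the largest difference of its window, as each ranked 3. In the *KCNJ12* window, 2 cytosines 10 bp apart at -49.9 kb exceeded it, with pooled differences of 31.7 and 27.8 points. A read of the minus strand can hold both, so they are not separate measurements, although the share above counts each. At the first, Tough animals had 0%, 29.4%, 46.4%, 73.7%, 46.2% and 66.7% and Tender animals 0%, 87.1%, 100%, 96.9%, 70.4% and 96.4%. Tough 1 and Tender 7 were at 0% at both cytosines, and the group means at the first, 43.7% ± 26.7 and 75.1% ± 38.4 (SD, n = 6 each), carried SDs about as wide as their difference. The overdispersion factor, which is 1 where animals of a group differ by counting error alone, was 18.03 and 17.3 at these 2 cytosines, 1 at the *KCNJ12* site and 1.25 at the *KCNJ2* site.

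In the *KCNJ2* window the largest difference was -40.2 points at -211.5 kb. There, Tough animals had 92.6%, 64.7%, 68.4%, 50%, 34% and 0%, and Tender animals 0%, 0%, 0%, 0%, 8.11% and 61.3%. Tough 6 was thus among the Tender animals and Tender 12 among the Tough ones. At -200.4 kb, Tough 1 had 55.6%, Tough 2 had 67.7% and the other 10 animals 0%. At -40.3 kb the Tender mean was higher (52.5% ± 23.2 against 23.5% ± 40.1, SD, n = 6), with 0% in 4 Tough animals and 97.0% in Tough 3. The other 2 lay at 54.4 kb (57.6% ± 18.2 in Tough and 33.3% ± 14.1 in Tender animals, SD, n = 6) and at 119.8 kb (28.3% ± 8.06 and 58.2% ± 19.4, SD, n = 6), where groups overlapped with fewer extreme values. Over both windows, 2 and 5 cytosines had both an animal at no more than 5% and one at no less than 95%. Those are 0.431% and 2.19%, and the 2 are the cytosines at -49.9 kb, which can share reads. The rest of chromosome 19 had 103 such cytosines (0.240%), and the share over all cytosines was 0.360%. As methylation is the share of reads that kept the cytosine, a thymine in the DNA of an animal would also lower it. No genotypes were used here, and whether DNA sequence differed between animals at the cytosines named above was not tested. A further cytosine of the *KCNJ2* window lay at 74.2 kb. It was at 100% in all Tender animals and 88.7% ± 11.8 (SD, n = 6) in Tough animals. Its adjusted p was 0.021 (chi-square test of the logistic model), and its p was smaller than that of the site. It was not called because its pooled difference of 12.7 points was under the 25 points required.

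**Figure D3:**
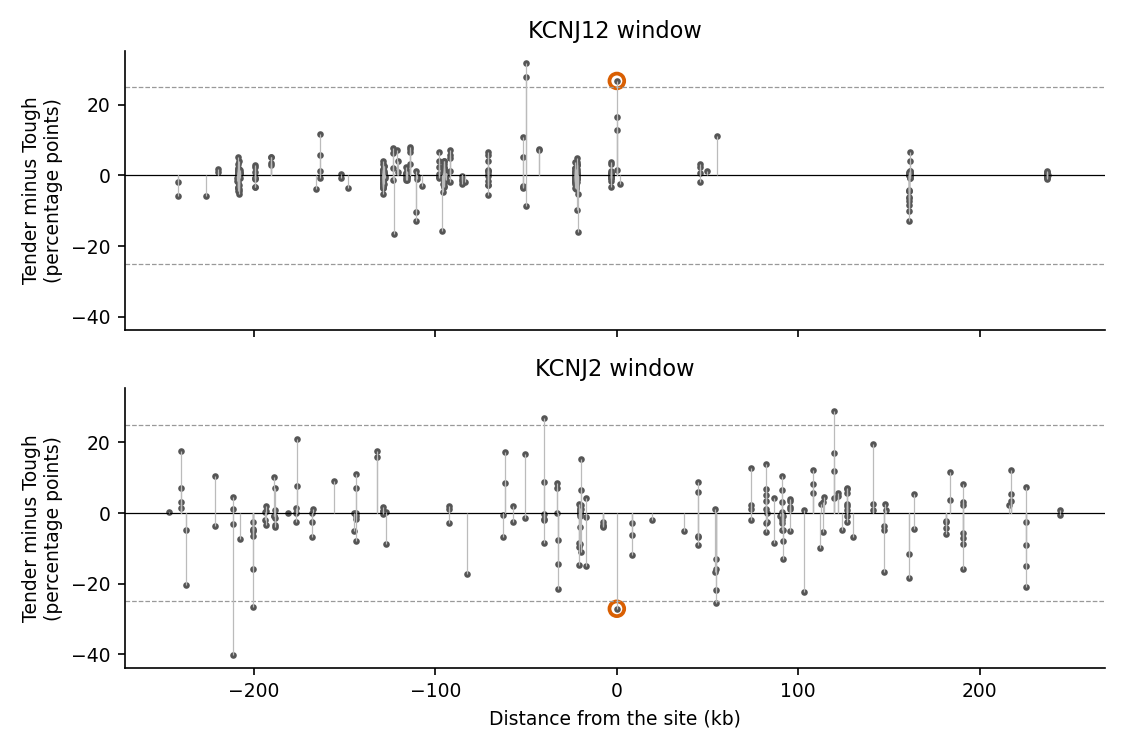
Pooled methylation difference, Tender minus Tough, in percentage points for each covered cytosine against its distance in kb from the site, in the *KCNJ12* window (above) and the *KCNJ2* window (below). Orange rings mark the sites at 26.7 and -27.1 points and dashed lines 25 points in either direction; 2 cytosines in each window lie farther from 0 than its site.

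The 2 windows differed in their level of methylation. The mean over a window was not used to choose the sites, although a cytosine near 0% or 100% in both groups cannot be called, and leaving out the cytosines within 1000 bp of each site gave like values. Averaged over its cytosines, the *KCNJ12* window had 11.9% ± 0.616 (SD, n = 12), from 10.7% to 12.9%, the *KCNJ2* window 59.1% ± 0.984 (SD, n = 12), from 56.9% to 60.4%, and the rest of chromosome 19 24.5% ± 0.456 (SD, n = 12). In each of 12 animals the *KCNJ12* window was below and the *KCNJ2* window above the rest of the chromosome. The *KCNJ12* window was lower than the *KCNJ2* window by a mean paired difference of -47.2 points ± 1.26 (SD, n = 12; exact two-sided sign-flip permutation test, p = 0.000488, the smallest that 12 animals allow). Against the rest of chromosome 19, the paired differences were -12.7 points ± 0.378 for the *KCNJ12* window and 34.6 points ± 1.14 for the *KCNJ2* window (SD, n = 12; the same exact permutation test, p = 0.000488 for each). Adjusted over these 3 tests by the Benjamini-Hochberg method, the p-values stayed at 0.000488. They measure only that the differences recurred across animals, whose levels varied little, and each window holds its own cytosines. How unusual such differences are among other windows of the genome was not tested.

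Group means of the windows lay close together. The *KCNJ12* window had 11.8% ± 0.847 among Tough and 11.99% ± 0.300 among Tender animals (SD, n = 6 each), and the *KCNJ2* window 59.4% ± 0.787 and 58.8% ± 1.13 (SD, n = 6 each). Both differences, 0.209 and -0.620 points, were smaller than the larger SD of their groups, and the values overlapped.

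**Figure D4:**
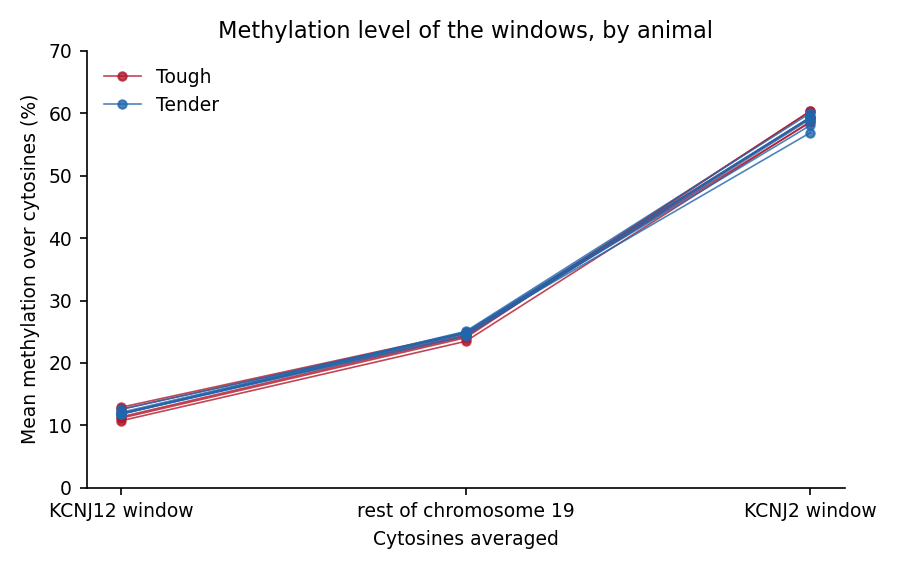
Mean methylation in percent over the covered cytosines of the *KCNJ12* window, the rest of chromosome 19 and the *KCNJ2* window, with 1 line per animal (Tough red, Tender blue). The lines nearly coincide, at 10.7% to 12.9%, 23.5% to 25.1% and 56.9% to 60.4%.

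The windows also differed in how their cytosines were distributed over levels. In the *KCNJ12* window, 376 of 464 cytosines (81.0%) were methylated at less than 10% on average, 48 (10.3%) at 20% to 80% and 29 (6.25%) above 80%, with a median of 0.858%. The *KCNJ2* window had 38 of 228 (16.7%), 89 (39.0%) and 91 (39.9%) in the same classes and a median of 68.6%. For the rest of chromosome 19 the shares were 63.2%, 16.5% and 15.8%, with a median of 2.94%. Intermediate levels, the class of both sites (means over all animals of 43.0% and 67.7%), were thus a minority around *KCNJ12* and common around *KCNJ2*.

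Coverage was clustered in the *KCNJ12* window and scattered in the *KCNJ2* window. The median gap between neighbouring cytosines was 6 bp in the former and 27 bp in the latter, while 50 and 70 of 500 bins of 1 kb held a covered cytosine. The longest stretch without one spanned 105.5 kb in the *KCNJ12* window, from 55.4 to 160.9 kb, and 34.9 kb in the *KCNJ2* window. Levels there are not known. The outermost cytosines inside the *KCNJ12* window, at -242.0 and 237.4 kb, had 84.7% and 0%, and the nearest outside it 96.3% and 97.0%. Those of the *KCNJ2* window, at -246.6 and 244.4 kb, had 98.8% and 86.2%, with 17.7% and 14.7% just outside.

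Runs of at least 10 neighbouring cytosines with a mean methylation under 10% each and gaps of at most 200 bp are referred to as unmethylated stretches. The *KCNJ12* window had 10 of them with 314 cytosines (67.7%), and the *KCNJ2* window 1 with 15 (6.58%). Stretches were not counted in the rest of chromosome 19, where 63.2% of cytosines were methylated at less than 10%. One at -23.1 to -22.5 kb (chr19:35328108-35328733, 54 cytosines) contains the start of *KCNJ12* as listed by the study for its regulator and gene pairs. It was methylated at 1.05% on average, with animals between 0.268% and 1.85%, and its Tender minus Tough difference of -0.310 points was within the SDs of the groups (0.487 and 0.561, n = 6 each). The start of the channel gene was therefore nearly free of methylation in both groups, and the site that differed lay over 20 kb away. A second stretch at -22.3 to -22.1 kb, with 19 cytosines, had 1.48%, and the one nearest to the site, at -3.3 to -3.2 kb with 17 cytosines, 0.927%.

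The remaining stretches of the *KCNJ12* window lay at -209.0 kb (54 cytosines, 0.908%), -128.9 kb (69, the longest by cytosines, 0.963%), -115.8 kb (14, 0.631%), -95.7 kb (11, 1.30%), -95.3 kb (52, 1.14%), -71.1 kb (12, 4.32%) and 161.7 kb (12, 1.15%). Of these, the stretch at -71.1 kb was the most variable, with animals from 0.260% to 13.8%, and its groups had 3.74% ± 4.89 and 4.90% ± 4.91 (SD, n = 6 each). The 1 stretch of the *KCNJ2* window, at -20.3 kb (chr19:58565850-58565915), had 0.875%, with 1.17% ± 0.516 among Tough and 0.580% ± 0.620 among Tender animals (SD, n = 6 each). Over the 11 stretches, group means differed by 1.15 points at the most (that at -71.1 kb). By the study's listing, the start of *KCNJ2* lies outside its window, so no value is given for it.

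**Figure D5:**
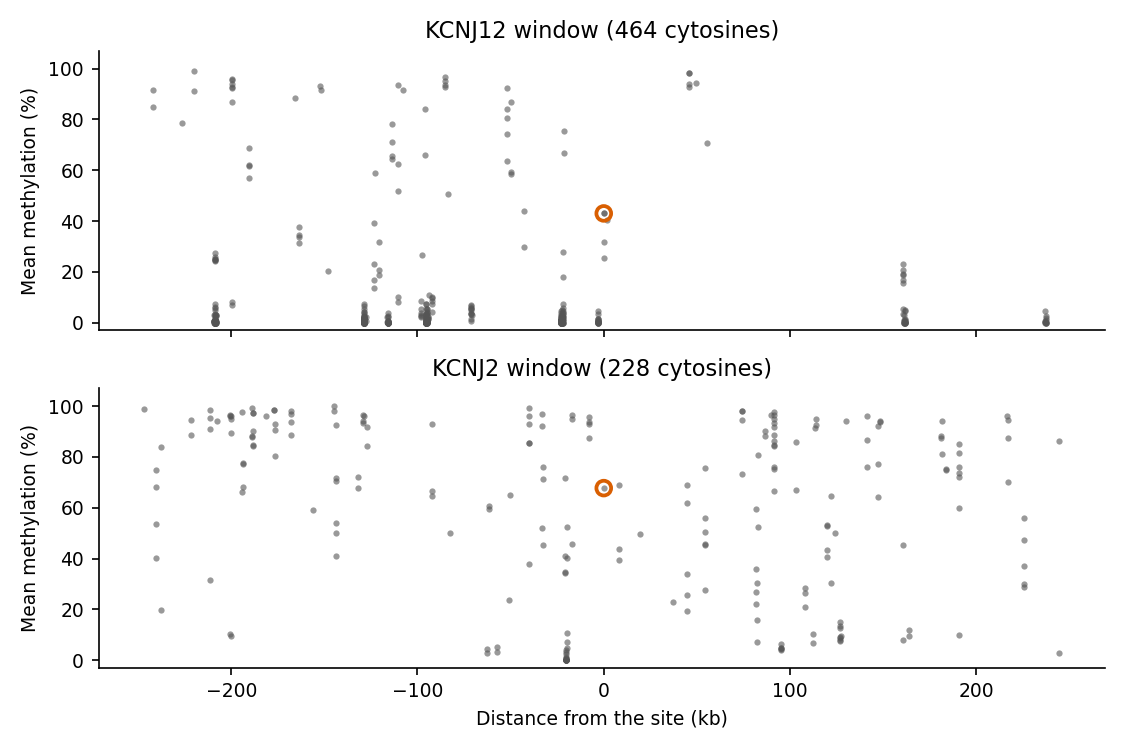
Mean methylation in percent over the 12 animals of each covered cytosine, against distance in kb from the site (orange ring), in the *KCNJ12* window (464 cytosines, above) and the *KCNJ2* window (228, below). The *KCNJ12* window shows columns of cytosines near 0% and a gap of 105.5 kb, and the *KCNJ2* window cytosines of all levels.

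Both strands of a CpG were covered at 81 CpGs of the *KCNJ12* window and 11 of the *KCNJ2* window. Their mean levels differed by a median of 0.604 and 3.18 points. Among the 4 of these CpGs in each window with a level of 20% to 80%, the median was 42.4 and 8.18 points. In the *KCNJ12* window, these 4 include the 2 CpGs described next. In the *KCNJ12* window, 2 CpGs 50 bp apart near -199.6 kb differed by 88.8 and 78.7 points in opposite directions. The first had 95.7% on the plus strand (79.3% to 100% over animals) and 6.92% on the minus strand (0% to 18.03%), and the second 8.27% (0% to 20%) and 86.9% (74% to 97.6%). The strands were apart in every animal of both groups. Library preparation in the study included end repair of the fragments after *MspI* digestion, and whether it contributed here was not tested. In the *KCNJ2* window, a CpG at 44.6 kb had 62.0% on its plus strand and 34.0% on its minus strand, with overlapping animals. Tough and Tender animals had 58.7% and 65.3% on its plus and 28.9% and 39.1% on its minus strand.

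Cytosines whose methylation followed that of the site most closely over the 12 animals were found among 351 of the *KCNJ12* window and 218 of the *KCNJ2* window that varied and lay over 50 bp away. Both groups are among the points and share the selected difference, and the highest of many correlations were picked. These Pearson correlations are therefore a description without a test, and nothing is read from their size. For the *KCNJ12* site they lay at -97.9 kb (r = 0.725, n = 12), -22.2 kb (r = 0.715, n = 12) and 237.1 kb (r = 0.662, n = 12), all at nearly unmethylated cytosines, where no animal exceeded 16.7%. At -97.9 kb, the Tough mean was 0.694% ± 1.70 and the Tender mean 5.32% ± 6.34 (SD, n = 6 each). For the *KCNJ2* site they lay at -32.4 kb (r = 0.757, n = 12), 225.7 kb (r = 0.702, n = 12) and 91.5 kb (r = 0.669, n = 12), and these had intermediate to high levels. At -32.4 kb, methylation was 86.6% ± 10.9 among Tough and 65.4% ± 10.5 among Tender animals (SD, n = 6 each), a pooled difference of -21.5 points. None of the 6 lay within 20 kb of its site.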

How the data were processed

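RRBS libraries of 12 animals, 6 Tough and 6 Tender by their labels, were sequenced on the Illumina platform. Trimming by the authors used Trim Galore 0.4.1, and alignment to ARS-UCD1.2 and calling used Bismark 0.23.0. With methylKit 1.8.1, a coverage of 10 or more reads in every animal was required, and the authors removed the most deeply covered ones and scaled coverage. The deposited methylated and unmethylated values are rounded scaled reads, hence a score and not counts, whereas the tests had been planned for counts. The reads before scaling were recovered for all 7625628 values (factor 1 to 1.27, 0 not exact). They summed to 14521826 to 23470740 per animal, with 20 to 33 per cytosine at the median. A single value therefore has a counting error, at the 2 sites a binomial SD of 9.35 to 12.2 points. Separate strands were kept as separate cytosines.

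Methylation was the percentage of methylated over all scaled reads. The fit over all 635469 cytosines was a logistic regression on group with overdispersion not below 1, a chi-square test and Benjamini-Hochberg adjustment. The 100 bp regions with at least 10 scaled reads in every animal were fitted alike. The F-test alternative followed methylKit, with the chi-square test kept where overdispersion was 1. Window levels are unweighted means over cytosines and were compared within animals by exact two-sided sign-flip permutation. Python 3.11.15, numpy 2.4.6, pandas 2.3.3, scipy 1.17.1 and matplotlib 3.10.9 were used, and the fit was tested on simulated data.

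The members, lists and tests were chosen with earlier results of these data known. Named were the sites, cytosines within 50 bp of them, the 3 per window most correlated with the site, called cytosines and regions, and unmethylated stretches. Cytosines with differences above 25 points, those at -56 bp and 74.2 kb and the pairs of strands far apart were added after their values were seen. Genomic locations and conversion groups are those of the study, and its animals were matched by number. A comparison of promoters of ion channel and contraction genes was not run, as no annotation of the files' build was used here, and no sequence is shown for the same reason. One animal is 1 replicate.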

Additional observations from a re-analysis of the deposited data

Results flagged for a closer look

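Among 34 groups of 6 animals checked for a single distant value (both sites, their neighbours within 50 bp, the windows and the unmethylated stretches), 1 was found, and chance alone flags about 1 in 20, or 1.7 of the 34. At the *KCNJ12* site, Tender 10 had 76.2%, and the other Tender animals lay between 50% and 54.5%. The gap to the nearest animal was 0.826 of the range of the group. The site was selected for its group difference, which favours a narrow spread of the other animals, so nothing is read from this value. Tender 10 had 18 reads there before scaling, with an exact 95% binomial interval of 52.4% to 93.6%.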

How the results depend on the processing

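No result changed direction. Leaving out 1 animal at a time gave pooled differences of 23.6 to 28.5 points at the *KCNJ12* site and -30.2 to -23.5 at the *KCNJ2* site, and paired differences of -47.4 to -47.0 (*KCNJ12* minus *KCNJ2* window), -12.7 to -12.6 (*KCNJ12* window minus the rest of chromosome 19) and 34.4 to 34.8 (*KCNJ2* window minus the rest). It gave 128 to 196 called cytosines over all, 0 to 1 in the *KCNJ12* window and 0 to 2 in the *KCNJ2* window. The *KCNJ12* site was called in 10 of 12 such fits, not without Tough 5 or Tender 10, and the *KCNJ2* site in 4 of 12 (without Tough 1, Tender 9, Tender 11 or Tender 12). Within the 5 animals of higher conversion the paired differences were -47.9, -12.8 and 35.2, with an exact permutation p of 0.0625, the smallest that 5 animals allow, and the range over all alternatives was 0.000488 to 0.0625. The *KCNJ2* window had 0 called cytosines on reads before scaling, with conversion as a covariate and with the F-test, which called 9 over all and 3 regions. An F-test at every cytosine, added after the data had been seen, called 0 over all and 0 in each window, with 31335 (4.93%), 15 (3.23%) and 26 (11.4%) at an unadjusted p under 0.05. Without overdispersion correction 1431 cytosines over all, 3 and 6 in the windows and 266 regions were called. With a scaled coverage of at least 20 in every animal, 24 were called over all and 0 in each window. Both sites drop out at this threshold and have no value, and 104 and 47 cytosines of the windows were left. The causes of the other changes were not tested. The planned comparison of promoters was not run. Depth limits the values of single sites, with intervals up to 53.9 and 61.6 points wide.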
